A study of Bos taurus with 18 samples.

Results

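Clones P and Q are 2 of the 18 samples of this RNA sequencing series, and each is a population of bovine bone marrow-derived mesenchymal stem cells (MSCs) that grew from 1 cell. They were picked by an assay made later on the same clones. At the next passage each yielded cells for only 1 chondrogenic pellet, and both pellets stood low in the study's plot of glycosaminoglycan (GAG) per DNA. That readout chose them and is not used as a result. They are set against the 15 other clones, A to O. The remaining sample, a mixed population of many cells labelled Het, stayed out of this comparison and entered only 1 alternative fit. The legend of the study's plot names neither A nor N, so how much matrix these clones later made is not known here.

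MSCs are stromal cells of the marrow that can be driven towards cartilage, bone or fat, and cartilage is built mainly of type II collagen and of aggrecan, a proteoglycan whose GAG chains hold water. The joint surface carries in addition lubricin, the product of PRG4, which lets cartilage faces glide. TGFβ family ligands are the usual inducers of cartilage differentiation in these cells, and the receptors for these ligands are therefore of interest in undifferentiated clones.

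The cells came from the tibial and femoral marrow of juvenile cattle aged 3 to 6 months, and the sources used here do not say whether the 17 clones share an animal. All 18 samples, P, Q and Het included, were passage 1 monolayers on plastic in serum-containing basal medium, with no genetic change and no chondrogenic factor. Each clone was sequenced once, so every SE and p below measures the spread between clones and not between cultures of 1 clone. The question was whether transcripts of undifferentiated clones foretell how much cartilage-like matrix they later deposit.

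The clones held 11484812 to 18458157 reads on genes, with 17319929 in P, 14507239 in Q and a median of 14133626 in the 15 others. Levels are given in CPM (reads on a gene scaled to a common total of reads) after TMM scaling, a trimmed-mean correction of library size, and 3 reads correspond to 0.171 CPM in P and 0.203 CPM in Q, which is the level that a count of 0 still allows by counting error alone. CPM is not corrected for gene length, so levels are compared between clones only. The MSC surface genes THY1, ENG and NT5E were read in both clones, with 565 and 390 CPM of THY1, 186 and 153 CPM of ENG, and 323 and 286 CPM of NT5E in P and Q, all 3 within the range of the other clones. The leukocyte marker PTPRC had 0 reads in P and 1 in Q.

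P and Q resembled each other more than they resembled any other clone, although other pairs were closer. For distances and components CPM was scaled by library totals, without TMM. Over 11477 genes the distance between P and Q, taken on gene-scaled log2(CPM + 0.25), was 109.92. It ranked 12 of 136 pairs and lay below the median of 147.56. With TMM-normalized CPM the pair ranked 15. The nearest clone to P was Q and the nearest to Q was P. The nearest clone to N was also Q, at a distance of 126.85, whereas N and P lay 159.82 apart and ranked 85 of the pairs. After Q, the clone nearest to P was J, at a distance of 118.67 that ranked 21. On the second principal component, which held 20.84% of the variance, N scored 119.91, Q 89.33 and P 48.12, the 3 highest scores of the 17 clones. On the third component, with 11.54% of the variance, P scored 79.34 and Q 28.39, while N lay at -38.33. The mean score of P and Q stood farthest from the others on component 3, and with TMM-normalized CPM on component 2. These are descriptions, since the place of P and Q in the study's own clustering was known.

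**Figure D1:**
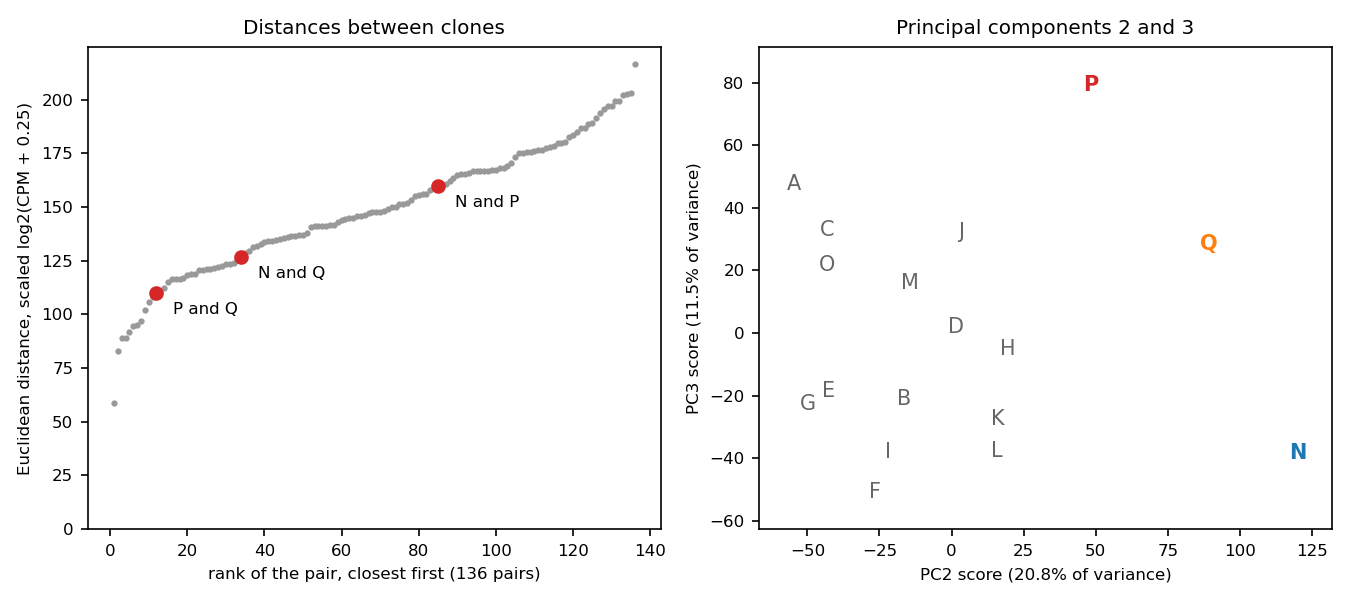
Left, the distance between each of the 136 pairs of clones (gene-scaled log2(CPM + 0.25), CPM by library total, Euclidean) against its rank, with the pairs among P, Q and N marked. P and Q lie at 109.92 and N and Q at 126.85. Right, the scores of the 17 clones on principal components 2 and 3, where N, Q and P hold the 3 highest scores on component 2 and P the highest on component 3.

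Lubricin RNA was abundant in P and Q and in clone N, and stood at 4.81 CPM or less in each other clone. PRG4 had 1105 reads (62.9 CPM) in P and 2353 reads (159 CPM) in Q. In the 15 other clones it ran from 0.541 CPM (O) over a median of 0.953 CPM to 546 CPM (8292 reads) in N, and the second highest was J with 4.81 CPM. P and Q therefore lay above 14 of the 15 other clones and below N. The fitted log2 difference of P and Q from the 15 others was 1.55 with an SE of 2.07, and PRG4 did not pass the test (edgeR quasi-likelihood, adjusted p = 0.733). Without N it was 6.23 with an SE of 0.46, and against the 4 other clones that also gave 1 pellet (F, I, K and M, at 0.748 to 3.6 CPM) it was 5.94. Het held 1.66 CPM of PRG4. PRG4 and SYT8 were both known from earlier results of these data, so their values are given as a description.

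SYT8, a member of the synaptotagmin family of membrane-trafficking proteins, was highest in Q. It had 341 reads (23.0 CPM) in Q and 92 reads (5.24 CPM) in P, against 0.139 CPM (G) to 3.23 CPM (N) in the others, with a median of 0.423 CPM. The groups did not overlap, but Q lay far above P. The log2 difference was 4.18 ± 0.66 (SE), and it was 2.75 for P alone and 4.88 for Q alone. SYT8 passed the test with both clones and with Q alone, and did not with P alone (edgeR quasi-likelihood, adjusted p = 0.00737, 0.0247 and 0.507). None of the other 12 tested genes of the synaptotagmin and exocytosis list passed the test, and the list's median log2 difference was -0.32, beside -0.02 over all genes tested. Next by p were ESYT1, an extended synaptotagmin, at 324 and 232 CPM in P and Q against 334 (N) to 588 CPM, and SYT12 at 0.398 and 2.77 CPM against 0.0675 to 1.01 CPM (edgeR quasi-likelihood, adjusted p = 0.129 and 0.16).

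Across the transcriptome 75 of 11506 genes passed the threshold of 0.05 on the adjusted p (0.652%), of which 65 (0.565%) were higher and 10 (0.0869%) lower in P and Q. At an unadjusted p under 0.05 there were 1918 genes (16.7%). In bulk RNA, fewer cells of a kind and less RNA per cell cannot be told apart. P and Q both lay above all 15 other clones in 446 genes (3.88%) and below all of them in 290 (2.52%), and so did 63 of the 65 higher and 9 of the 10 lower genes. The exceptions were MYRFL and KCNMB4 among the higher and EYA2 among the lower genes, where another clone overlapped with P or Q. With P alone against the 15 others 16 genes passed (0.136%), all higher, and with Q alone 3 (0.0256%), all higher: FOXO6, LRRN3 and SYT8. Only FOXO6 passed in both single-clone fits.

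**Figure D2:**
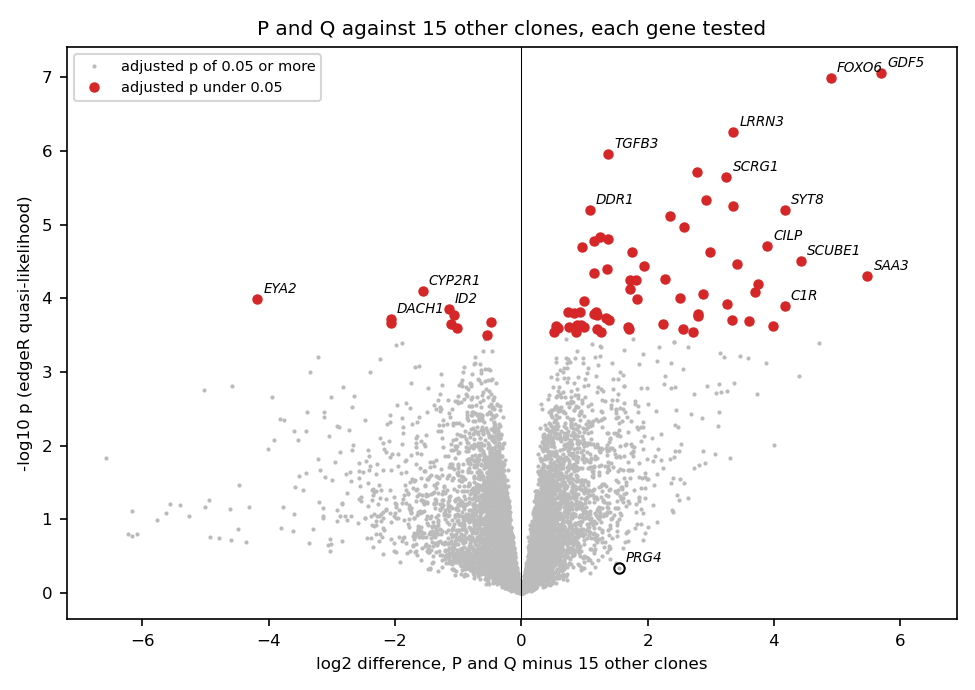
Each of the 11506 genes tested, with the log2 difference of P and Q from the 15 other clones on the horizontal axis and -log10 of the unadjusted p of the edgeR quasi-likelihood test on the vertical axis; red points are the 75 genes with an adjusted p under 0.05, and the open circle is PRG4. Of the red points 65 lie to the right of 0 and 10 to the left.

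The number of genes depended on clone N. Without N, 640 genes passed (5.58%), 392 higher (3.42%) and 248 lower (2.16%), and all 75 genes of the full comparison were among them. N lay above all 14 remaining clones in 295 of those 392 genes, above at least 1 of P and Q in 206 and above both in 133. It lay below all 14 in 190 of the 248 lower genes. Among the 65 genes called higher with N included, N was the highest of the 15 other clones in 24 (36.9%), against 18.9% of all genes tested, and among the 10 called lower it was the lowest in 8 (80.0%), against 14.9%. N also had the largest share of reads outside genes, 26.81%, with 21.43% in P and 21.86% in Q; its part in these counts was not tested. Leaving out J, L or O kept the count between 51 and 62. The count was 32 without B, 35 without E, 40 without H, 43 without A, D or F, 44 without K, 45 without G, and 47 without C, I or M.

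**Figure D3:**
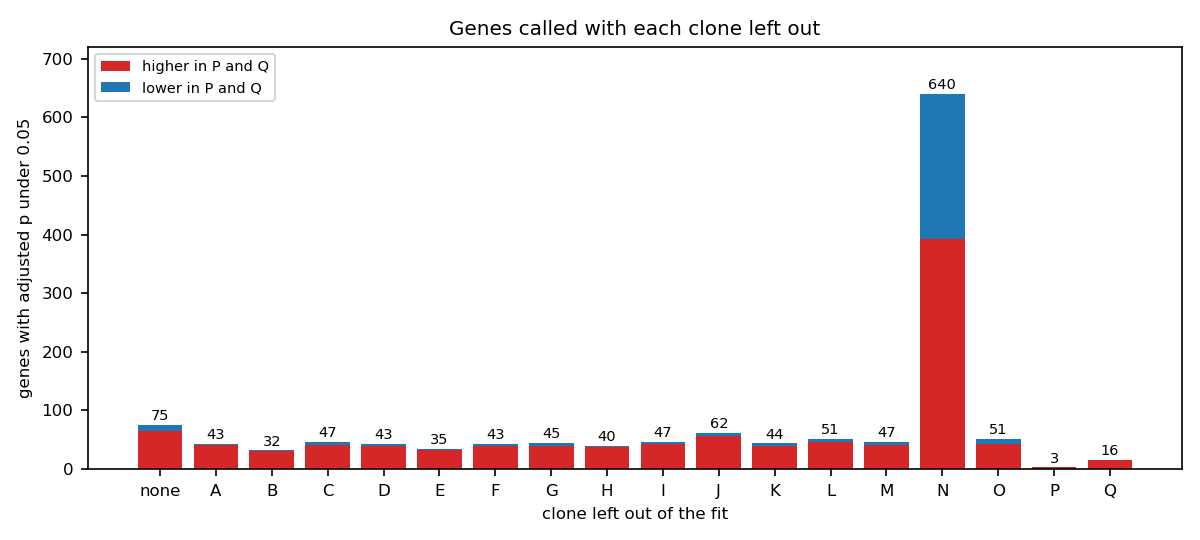
Genes with an adjusted p under 0.05 in the edgeR comparison of P and Q with the other clones, with no clone left out (75) and with each of the 17 clones left out in turn, split into higher (red) and lower (blue) in P and Q. The bar without N reaches 640, those without another of the 15 clones lie between 32 and 62, and 3 genes pass without P and 16 without Q.

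Genes of lubrication and the joint surface supplied 2 of the called genes, GDF5 and CILP, out of 16 tested, and the other 14 did not pass. Of all genes tested 0.565% were called higher. GDF5 encodes a BMP-family ligand known for its part in joint formation. It had 26 reads in P and 12 in Q, while 13 of the 15 other clones had 0 and the other 2 had 3 reads between them (0.146 CPM in J and 0.0681 CPM in B). Relative to library size the rate in P and Q was 85 times that of the others, with an exact 95% interval from 27 to 430 that covers counting error only. It passed the test (edgeR quasi-likelihood, adjusted p = 0.000588) but rests on 38 reads in all, and N had none. GDF5 also passed the filter on low counts only through P and Q, where it is high, so its p is given as a description.

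CILP, which encodes a protein of the intermediate layer of cartilage, was read at 25.8 CPM in P and 18.5 CPM in Q. The other clones had 0.349 to 5.27 CPM, with a median of 0.743, and N, M and K were the 3 clones above 4 CPM. The groups did not overlap, and the log2 difference was 3.89 ± 0.68 (edgeR quasi-likelihood, adjusted p = 0.0136). CLU, which encodes the secreted chaperone clusterin, had 1290 CPM in P and 1150 in Q, above N with 921 and the 14 others with 26.7 to 268. Its log2 difference of 2.94 ± 0.79 did not pass (adjusted p = 0.0984), and without N it was 3.53 ± 0.53 and did (adjusted p = 0.00103). The median log2 difference over the 16 genes was 0.56.

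The cartilage matrix and SOX genes had 1 called member, SCRG1, among 18 tested, beside 0.565% of all genes tested that were called higher. All 18 log2 differences lay above 0, with a median of 1.02. SCRG1, named as a stimulator of chondrogenesis, had 32 reads (1.82 CPM) in P and 11 reads (0.743 CPM) in Q against 0 to 5 reads (0 to 0.329 CPM) in the others, a log2 difference of 3.24 ± 0.48 (edgeR quasi-likelihood, adjusted p = 0.00434). SCRG1 passed the filter on low counts only through P and Q, where it is high, so its p is given as a description. MATN4 (matrilin 4) and COL9A1 (a type IX collagen chain), next by p, did not pass. MATN4 was at 0.569 and 2.77 CPM in P and Q against 0.0604 to 0.922 CPM (adjusted p = 0.0559), and COL9A1 at 1.31 and 0.879 CPM against 0 to 0.602 CPM (adjusted p = 0.0975). COL9A1, like SCRG1, passed the filter on low counts only through P and Q. The large cartilage genes, named after their values were seen, overlapped between the groups, although few of the other clones lay above P or Q. ACAN (aggrecan) was at 752 CPM in P and 1320 CPM in Q, inside a range of 18.5 to 2750 CPM (median 115) in the others, with N, O and C at 1200 CPM or more. COL2A1 (type II collagen) was at 641 and 232 CPM inside a range of 16.7 to 1220 CPM (median 58.2). SOX9, the transcription factor that governs both, was at 18.6 and 15.9 CPM inside 2.84 to 22.9 CPM. Above P and Q lay 3 and 2 other clones for ACAN, 2 and 3 for COL2A1, and 2 and 4 for SOX9. Against F, I, K and M the log2 differences were 3.61, 2.78 and 1.68, and only ACAN passed (edgeR quasi-likelihood, adjusted p = 0.0249).

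COMP, a matrix protein that binds collagen, likewise named afterwards, differed between P and Q, with 3.64 CPM in P, 40.3 CPM in Q and 51.0 CPM in N against 7.5 CPM or less in the 14 others. Its fitted difference from the others was -0.58 for P alone and 2.88 for Q alone on the log2 scale, and it did not pass in the full comparison (adjusted p = 0.436). The listed genes of GAG chain synthesis were mainly those of chondroitin sulfate, and EXTL1, a called gene given below, was not among them. Of these listed genes 27 were tested and none passed (median -0.03). The 3 with the smallest p were CHPF2 (161 and 138 CPM in P and Q, 84.3 to 145 in the others), CSGALNACT2 (39.6 and 80.2 CPM, 23.8 to 63.6) and XYLT2 (77.8 and 71.0 CPM, 41.9 to 77), enzymes of the chondroitin sulfate chain or its linker, with adjusted p = 0.158, 0.17 and 0.244 (edgeR quasi-likelihood). None of 22 matrix proteases and inhibitors passed either (median -0.01). The smallest p were those of TIMP4, a protease inhibitor, at 0.342 and 0.203 CPM against 0.366 to 1.31 CPM, of the protease ADAMTS9 at 14 and 3.72 CPM against 4.21 (N) to 52.1 CPM, and of the protease MMP12 at 1.02 and 1.62 CPM against 0 to 1.28 CPM (adjusted p = 0.128, 0.271 and 0.331).

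**Figure D4:**
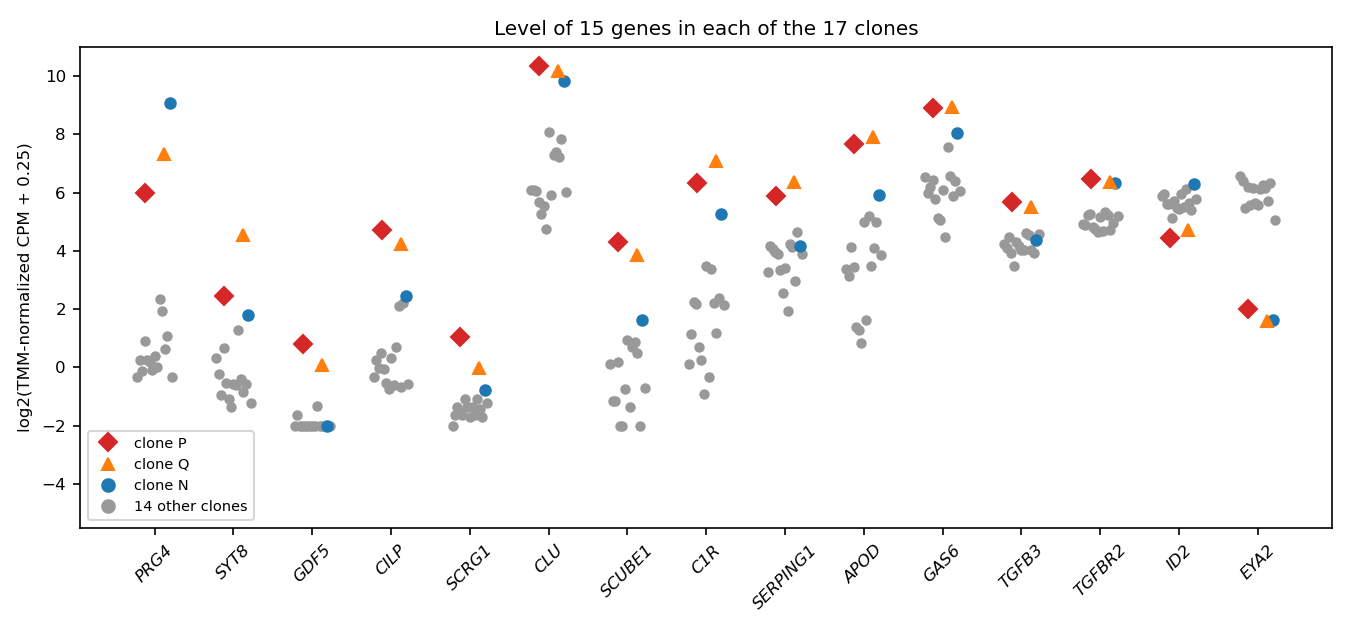
The level of 15 genes as log2(TMM-normalized CPM + 0.25) in each of the 17 clones, with P as red diamonds, Q as orange triangles, N as blue circles and the 14 other clones in grey. N lies above P and Q for PRG4, close to them for EYA2 and TGFBR2, and with the grey points for GDF5 and TGFB3.

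In the TGFβ and BMP pathway 2 of 32 tested genes were higher, 1 was lower and 29 did not pass, with a median log2 difference of 0.09. Of all genes tested 0.565% were called higher and 0.0869% lower. TGFB3, 1 of the TGFβ ligands, was at 50.4 CPM in P and 44.7 CPM in Q, against 11 to 24.0 CPM (median 17.8) in the others. N, at 20.3 CPM, lay with the rest, and the groups were well apart. The log2 difference was 1.38 ± 0.19 (edgeR quasi-likelihood, adjusted p = 0.00318), and 26 of 27 other fits kept it past the threshold, the exception being Q alone. TGFBR2, the type II receptor that binds these ligands, was at 87.5 and 82.3 CPM in P and Q, against 25 to 40.1 CPM in 14 clones and 81.0 CPM in N. P and Q lay just above N here, and the log2 difference of 1.27 ± 0.28 passed (adjusted p = 0.0453) but kept its call in only 9 of 27 other fits.

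ID2, a helix-loop-helix inhibitor that BMP signalling is known to induce, was lower, at 21.7 CPM in P and 26.0 CPM in Q against 35.0 (E) to 77.4 CPM (N) in the others, with a median of 49.8. Here N stood at the opposite end from P and Q. The log2 difference was -1.15 ± 0.24 (edgeR quasi-likelihood, adjusted p = 0.0399). Of the listed Wnt pathway genes, 20 were tested and none passed, with a median of -0.45. WNT5B, a Wnt ligand, was at 12.9 and 4.87 CPM against 14 to 66.5 CPM (adjusted p = 0.119). The Wnt inhibitor NOTUM was at 2.68 and 0.879 CPM against 2.04 (N) to 18 CPM (adjusted p = 0.184), and the Wnt antagonist NKD2 at 0.228 and 0.203 CPM against 0 (N) to 8.32 CPM (adjusted p = 0.108). The Wnt-related genes DAAM2 and PORCN, outside the list and named after their values were seen, were called higher. DAAM2 was at 750 and 708 CPM against 191 to 467 CPM, and PORCN at 4.67 and 4.66 CPM against 1.84 to 3.31 CPM (edgeR quasi-likelihood, adjusted p = 0.0128 and 0.0435). They kept their calls in 25 and 8 of 27 other fits.

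C1R, a protease that starts the classical complement cascade, was at 79.7 CPM in P and 136 CPM in Q, against 0.279 (G) to 10.9 CPM in 14 clones and 38.0 CPM in N. The difference was 4.17 ± 0.86 (edgeR quasi-likelihood, adjusted p = 0.0379). SERPING1, the inhibitor of the C1 proteases, was named after its values were seen. It was at 59.1 and 81.2 CPM in P and Q against 3.54 (I) to 25 CPM (M) in the others, and its difference was 2.36 ± 0.38 (adjusted p = 0.00804). C1S and C4A, which act next to C1R in the same cascade and were likewise named afterwards, did not pass. C1S was at 261 and 485 CPM, with N at 198 CPM and the 14 others at 1.32 to 48.6 CPM (adjusted p = 0.0718), and C4A at 29.2 and 22.6 CPM with N above both at 33.0 CPM (adjusted p = 0.138).

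SAA3, an acute-phase apolipoprotein, had 52 reads in P, 129 in Q and 24 in N, and at most 0.135 CPM in any other clone, a log2 difference of 5.48 ± 1.03 (edgeR quasi-likelihood, adjusted p = 0.023). Of the other clones only N reached the minimum of the filter on low counts, so the p of SAA3 is given as a description. SAA3 belongs to a family of similar genes, so its reads may be shared with a relative. It was the only called gene of 11 tested in the cytokine and inflammation list (median -0.03). Of all genes tested 0.565% were called higher. ICAM1, an adhesion molecule, and C3, the central complement protein, followed it by p, with ICAM1 at 8.71 and 9.8 CPM beside 9.81 CPM in N (adjusted p = 0.118), and C3 at 7.0 and 8.38 CPM above all others (adjusted p = 0.128). None of 14 interferon-stimulated genes passed (median 0.41); IFI6 was at 16.2 and 17.6 CPM against 1.95 to 12 CPM, IFIT3 at 6.2 and 11.4 CPM against 0.558 to 8.03 CPM, IRF9 at 35.8 and 32 CPM against 7.39 to 29.3 CPM, and N was the highest of the others for all 3 (edgeR quasi-likelihood, adjusted p = 0.0984, 0.0996 and 0.151).

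APOD, a lipid-carrying lipocalin, was at 205 CPM in P and 243 CPM in Q against 1.53 (G) to 60.5 CPM (N), a log2 difference of 3.70 ± 0.73 (edgeR quasi-likelihood, adjusted p = 0.0292). SCUBE1, a secreted protein with EGF-like repeats, was at 19.4 and 14.4 CPM against 0 to 2.83 CPM (N), a difference of 4.43 ± 0.80 (adjusted p = 0.0182). N was the highest of the other clones for both, yet lay well below P and Q. ISM1 (isthmin 1) and MOXD1, a monooxygenase, came closest to overlapping among the 10. ISM1 was at 138 CPM in P and 57.1 CPM in Q beside 50.4 CPM in N, and MOXD1 at 9.85 and 2.43 CPM beside 2.3 CPM in N; each kept its call in 10 of 27 other fits (edgeR quasi-likelihood, adjusted p = 0.0434 and 0.0435).

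FOXO6, a forkhead transcription factor, had 71 reads in P (4.04 CPM) and 72 in Q (4.87 CPM), and 0 to 4 reads in each other clone, the highest being D with 0.359 CPM. The log2 difference was 4.90 ± 0.57 (edgeR quasi-likelihood, adjusted p = 0.000588), and it was the only gene called in each of the 17 fits that left out 1 clone. FOXO6, too, passed the filter on low counts only through P and Q, where it is high, so its p is given as a description. The 15 fits that left out 1 of the other clones had 31 calls in common.

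Other called genes are named after their values were seen. LRRN3, a transmembrane protein with leucine-rich repeats, was at 44.2 CPM in P and 65.2 CPM in Q against 2.05 to 14.6 CPM (N), a difference of 3.35 ± 0.44 (edgeR quasi-likelihood, adjusted p = 0.00214). EXTL1, a glycosyltransferase of heparan sulfate synthesis, was at 26.2 and 24.2 CPM against 0.862 to 8.25 CPM (D), and DDR1, a receptor kinase for collagen, at 49.1 and 39.2 CPM against 15.1 to 28.7 CPM (K). In these 2 genes N lay within the other clones (adjusted p = 0.00434 and 0.00737 by the same test). GAS6, the ligand of the TAM receptor kinases, was at 485 CPM in P and 493 CPM in Q against 22.2 to 188 CPM in 14 clones and 263 CPM in N, a difference of 2.52 ± 0.51 (adjusted p = 0.033). The transcription factors TCF4 and ZNF521 were also higher, with TCF4 at 96.2 and 84.0 CPM against 18.2 to 50.2 CPM and ZNF521 at 140 and 127 CPM against 17.8 to 69.9 CPM (adjusted p = 0.0204 and 0.0233).

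P4HA3, LEPREL2 and CCDC80 were also called higher and were named after their values were seen. P4HA3, a catalytic subunit of collagen prolyl 4-hydroxylase, was at 94.4 and 151 CPM in P and Q against 10.2 to 82.2 CPM (M). LEPREL2, a prolyl 3-hydroxylase, was at 378 and 371 CPM against 135 to 264 CPM. CCDC80, a secreted matrix protein, was at 5510 and 5630 CPM against 1110 to 3380 CPM. Their log2 differences were 2.25, 0.87 and 1.19 (edgeR quasi-likelihood, adjusted p = 0.0435, 0.0453 and 0.0435), and each kept its call in 10 or 11 of 27 other fits. Of the list of fibrillar and fibroblast matrix genes, in contrast, none of 28 passed (median 0.24), and for the 3 with the smallest p N stood close to the pair. THBS2 (thrombospondin 2) was at 2390 and 2210 CPM beside 1340 CPM in N, FN1 (fibronectin) at 61000 and 47000 CPM beside 49600 CPM, and COL14A1 at 877 and 932 CPM beside 1000 CPM, while the 14 others reached at most 677, 32100 and 280 CPM.

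Of the 10 lower genes, EYA2, a transcriptional co-activator, had the largest log2 difference. EYA2 was at 3.76 CPM in P and 2.77 CPM in Q and at 2.83 CPM in N, against 33.4 (O) to 95.3 CPM (A) in the 14 other clones. The 3 clones P, Q and N thus stood together, far from the rest, and the log2 difference was -4.19 ± 0.84 (edgeR quasi-likelihood, adjusted p = 0.033). It is outside the rule for named genes because N overlapped with the pair. DACH1, a transcriptional regulator, was at 23.1 CPM in P, 11 CPM in Q and 27.3 CPM in N, against a median of 86.3 CPM and a highest value of 102 CPM in the 15 others, a difference of -2.07 ± 0.44 (adjusted p = 0.0427).

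CYP2R1, which hydroxylates vitamin D, was at 1.88 and 1.22 CPM (33 and 18 reads) against 2.90 (N) to 6.9 CPM, and B3GALNT1, a glycosyltransferase, at 5.46 and 3.45 CPM against 6.91 (N) to 31.5 CPM. The log2 differences were -1.56 ± 0.31 and -2.07 ± 0.45 (edgeR quasi-likelihood, adjusted p = 0.0292 and 0.0435). PALM2, CCNYL1, RAP1GDS1, NIPA2 and UBE2D2 made up the rest, with log2 differences from -1.12 to -0.49. In all of these but CCNYL1 the lowest of the other clones was N. Among the 10 lower genes, CYP2R1 kept its call in 25 of 27 other fits, EYA2 in 23, ID2 in 20 and CCNYL1 in 16. DACH1 kept it in 13, B3GALNT1 in 12, PALM2 in 11, UBE2D2 in 10, RAP1GDS1 in 9 and NIPA2 in 6. ITGB3, the integrin β3 subunit, was the gene next in line, below all others at 127 and 67.9 CPM against 140 (N) to 553 CPM, and did not pass (adjusted p = 0.0574).

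No gene of dividing cells passed the test. Of the 29 DNA replication and mitosis genes tested, none had an unadjusted p under 0.05 either, and all 29 log2 differences lay below 0, with a median of -0.90. Their summed level was 1240 CPM in P and 722 CPM in Q, against 343 (M) to 4380 CPM (O) with a median of 882, so that P lay above and Q below the middle clone. MKI67, a marker of cycling cells, was at 141 CPM in P and 63.9 CPM in Q against 21.6 to 592 CPM (median 94.8). BUB1, CCNB2 and AURKB, which act in mitosis, had the smallest p of the list, with BUB1 at 14.1 and 7.1 CPM, CCNB2 at 13.5 and 6.69 CPM and AURKB at 16.4 and 11 CPM, each within the other clones (edgeR quasi-likelihood, adjusted p = 0.544, 0.583 and 0.584). Of 22 CDK inhibitors and p53 targets none passed (median 0.12), and CDKN1A, which halts the cycle, was at 292 and 248 CPM against 92.3 to 253 CPM (edgeR quasi-likelihood, adjusted p = 0.268). FAS, a death receptor, was at 17.5 and 21.6 CPM against 4.93 to 20.4 CPM (N), and the kinase PLK3 at 17.5 and 10.3 CPM against 15.1 (N) to 32.1 CPM (adjusted p = 0.164 and 0.246).

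None of the lineage lists passed in any member. The medians were -0.36 over 16 adipocyte genes, -0.67 over 11 osteoblast genes and -0.89 over 15 smooth muscle contractile genes. PPARG, the regulator of fat cell formation, was at 3.02 and 2.57 CPM, below all others (3.95 CPM in N to 26.8 CPM; adjusted p = 0.138). SP7, an osteoblast transcription factor, was at 9.16 and 6.08 CPM within 5.20 (N) to 84.1 CPM (adjusted p = 0.221), and ACTA2, smooth muscle actin, at 710 and 459 CPM beside 524 (N) to 6000 CPM (adjusted p = 0.13). N was the lowest of the other clones for all 3. The adipocyte list's other genes of smallest p were the lipid enzymes ACSL1, at 34.2 and 28.5 CPM against 36.2 (N) to 66.9 CPM, and AGPAT2, at 16.8 and 23.3 CPM against 15.3 to 102 CPM (adjusted p = 0.13 and 0.347). The osteoblast transcription factors DLX5 and RUNX2 were at 2.62 and 1.96 CPM against 1.98 (N) to 13.3 CPM and at 75.7 and 62.9 CPM against 74.2 (N) to 155 CPM (adjusted p = 0.16 and 0.223). Of the smooth muscle list, the actin-binding TPM1 and FLNA were at 467 and 408 CPM against 590 (N) to 1650 CPM and at 4490 and 3280 CPM against 3380 (N) to 9270 CPM (adjusted p = 0.138 and 0.149). Of 15 MSC surface and stroma genes none passed (median -0.26). PDGFRA, a growth factor receptor of stromal cells, was at 639 and 783 CPM beside 95.6 to 771 CPM (N) in the others and had the smallest p of them (adjusted p = 0.293), whereas NGFR had 0 reads in both clones and 60 reads over 10 of the 15 others. KITLG, a ligand for blood-forming cells, had 11 reads in P and 5 in Q against 4 to 111 (adjusted p = 0.347).

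**Figure D5:**
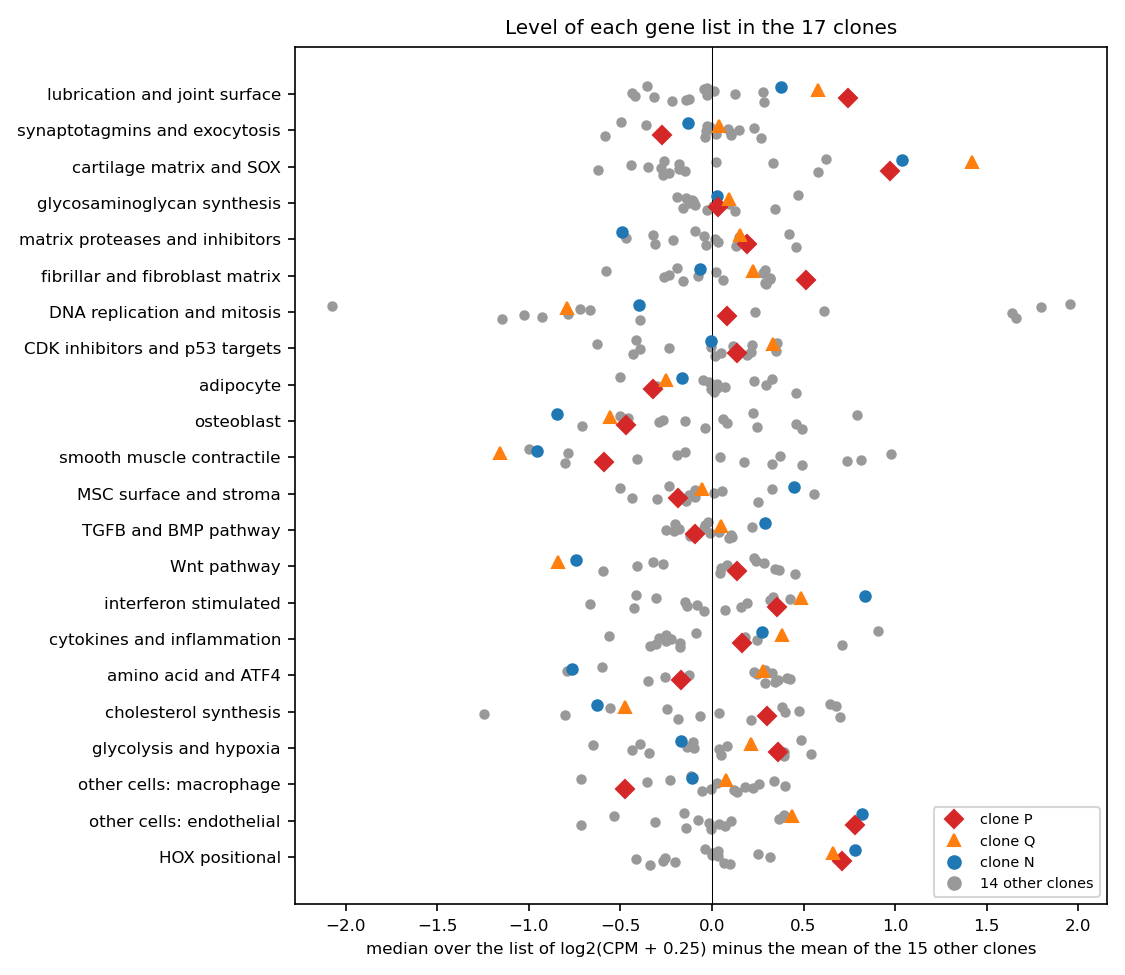
For each gene list, the median over its tested genes of log2(CPM + 0.25) minus the mean of the 15 other clones, with P as red diamonds, Q as orange triangles, N as blue circles and the 14 others in grey. P and Q lie to the right of all grey points for the lubrication, cartilage, HOX and endothelial lists, with N also above the grey points for all 4, and among the grey points for DNA replication and mitosis.

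The HOX genes, a positional code kept by stromal cells, had 25 members tested and none passed. The median log2 difference was 0.62, and P and Q lay above all other clones in 5 of them, against 3.88% of all genes tested. HOXD9 was at 29.3 and 28.7 CPM against 8.30 to 27.1 CPM, HOXD4 at 16.0 and 12 CPM against 4.29 to 14.4 CPM, and HOXD3 at 11 and 7.43 CPM against 1.29 to 9.41 CPM (edgeR quasi-likelihood, adjusted p = 0.108, 0.12 and 0.151). N was the highest of the other clones for these 3 genes, and without it HOXD9, HOXD4, HOXD3 and HOXB6 passed. The metabolic lists had no called gene: amino acid and ATF4 genes (19 tested, median -0.04), cholesterol synthesis (17, median -0.12) and glycolysis and hypoxia (22, median 0.23). CA9, a hypoxia-induced carbonic anhydrase, was at 28.8 and 12.9 CPM, with O at 15.9 CPM above Q (adjusted p = 0.184). The other genes of smallest p in these lists were PDK1 (66.9 and 73.3 CPM against 31.8 to 55.1 CPM, adjusted p = 0.108) and PFKFB3 (211 and 137 CPM against 22.8 to 205 CPM in N, adjusted p = 0.172), which steer glycolysis. In the amino acid list DDIT4 was at 216 and 211 CPM against 26.4 to 181 CPM (adjusted p = 0.197), and the enzymes CTH and PSPH lay within the other clones (adjusted p = 0.373 and 0.466). In the cholesterol list the enzyme CYP51A1 lay within them too (edgeR quasi-likelihood, adjusted p = 0.512).

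Most of the listed markers of other marrow cells had few reads in both clones. The summed macrophage list was 40.2 CPM in P and 62.5 CPM in Q, within 15.2 to 92.5 CPM in the others, and 633 of the reads in P and 846 in Q were of CTSS, a lysosomal protease. C1QA, C1QB, C1QC, LYZ, ITGAM and CCL3 had 0 reads in P and Q. Het, too, had 0 reads of ITGAM, 1 of C1QB and 2 of LYZ, so the absence of these genes tells little. CD68 had 20 reads in P and 29 in Q, and FCER1G 18 in each, beside medians of 27 and 10 in the other clones. CSF1R had 6 and 3 reads beside a median of 9. The summed endothelial list was 10.2 CPM in P and 8.72 CPM in Q, within 2.51 to 10.9 CPM in the others. PECAM1 had 23 and 11 reads beside a median of 10. CDH5, ESAM, CLDN5 and ROBO4 were at 0 in both, as were HBA and HBB of the erythroid list (0.683 and 0.27 CPM). All of them had 0 reads in each other clone and in Het as well, so their absence tells little. None of the 5 macrophage genes tested passed (median -0.32; MRC1, CSF1R and FCER1G had the smallest p, adjusted p = 0.378, 0.395 and 0.604 by edgeR). None of the 4 endothelial genes tested passed, but all 4 log2 differences lay above 0 (median 0.55; TEK, VWF and EGFL7 had the smallest p, adjusted p = 0.267, 0.589 and 0.62). The median level of these 4 genes relative to the mean of the 15 other clones was 0.78 in P, 0.44 in Q and 0.82 in N on the log2 scale, and at most 0.39 in the 14 others. The part of these genes in the results above was not tested. No erythroid gene was high enough to test. NCF4, CSF2RB and BLA-DQB, leukocyte genes outside these lists and named after their values were seen, were called higher. NCF4 was at 8.03 CPM in P and 5.95 CPM in Q against 0.179 to 1.9 CPM in the others. CSF2RB was at 1.99 and 0.946 CPM against 0 to 0.729 CPM, and BLA-DQB at 6.03 and 8.31 CPM against 0.144 to 2.09 CPM. Their adjusted p were 0.00737, 0.0427 and 0.0141 (edgeR quasi-likelihood), and their source was not tested. CSF2RB reached the minimum of the filter on low counts in no more than 1 of the other clones, so its p is given as a description.

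P and Q were also set side by side, with 1 library each and hence no test. They were over 4-fold apart on log2(CPM + 0.25) in 73 genes, 60 higher in P and 13 higher in Q, which is the sixth smallest number of the 136 pairs (median 317, highest 703). Of the genes over 10 CPM in either clone the widest gap was in the basement membrane collagen IV chains COL4A1 and COL4A2, which lie head to head in mammalian genomes. COL4A2 was at 173 CPM in P and 0.135 CPM in Q, and COL4A1 at 388 and 1.15 CPM. Both values of P lay above all 15 other clones (highest F, 71.5 and 194 CPM) and both of Q below all of them (lowest 0.51 and 1.68 CPM). NES (nestin, 200 and 13.9 CPM) and DES (desmin, 362 and 53.5 CPM), intermediate filament genes, were higher in P than in Q. For NES, P lay within the other clones (54.8 to 741 CPM, median 288) and Q below all of them. For DES both lay within the others (26.5 to 367 CPM). COMP, AOX1 (2.16 and 16.4 CPM) and SYT8 were higher in Q.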

How the data were processed

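RNA of 17 clones and 1 mixed population was sequenced with single-end reads. The authors aligned them to bosTau7 with STAR 2.3.0e and counted RefSeq genes with HTSeq, which gave the deposited raw counts per gene and library with no normalization. The library kit does not mark strand, so reads of overlapping antisense genes cannot be told apart. Each library has 5 tally lines that name no gene (18.78% to 26.81% of the reads lay outside genes), which stayed out of totals and tests. Of 16989 symbols 2614 had 0 reads in all 17 clones, and 91.06% were found by name in the RefSeq gene table (ARS-UCD2.0), used only to look for neighbouring genes. Among the called genes found in its order, NCF4 and CSF2RB were the only adjacent pair. Reads of multigene families (BLA-DQB, SAA3, LY6E) may be split between copies.

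Groups follow the sample labels. P and Q were compared with the 15 other clones with edgeR 4.0.16 (TMM, filterByExpr, quasi-likelihood test, Benjamini-Hochberg over 11506 genes) in R 4.3.3; SE is the log2 difference divided by the root of F, and the common biological coefficient of variation was 33.98%. Levels are TMM-normalized CPM. Distances and components used log2(CPM + 0.25), with CPM by library total, of genes above 1 CPM in at least 1 clone (Python 3.11.15, numpy 2.4.6, pandas 2.3.3, matplotlib 3.10.9). As the smaller group has 2 clones, filterByExpr keeps genes that reach its minimum in P and Q alone, as GDF5, SCRG1, FOXO6 and COL9A1 did. SAA3, CSF2RB and MATN4 reached it in no more than 1 of the other clones. The members and gene lists were chosen with earlier results of these data known. Genes named are PRG4 and SYT8; of the called genes beyond all 15 other clones, the 10 with the largest log2 difference each way, completed downward by the smallest p; and from each list called members and the 3 with the smallest p; others were named after their values were seen. A few genes under this rule are not reported here. Alternatives were DESeq2 1.42.0, limma 3.58.1, robust edgeR, other scalings and filters, Het added, and clones F, I, K and M only. In further fits A and N, not named in the legend of the GAG plot, were left out, and each clone was left out in turn. Counts of P and Q against 15 clones with 200 changed genes were simulated, over 11419, 11424 and 11405 genes. In them edgeR found 39% at log2 1, 79.5% at 2 and 90.5% at 3, with 4.88%, 3.05% and 2.69% of calls false. DESeq2 had 19.83%, 19.81% and 13.62% false and limma 8.64%, 5.52% and 5.98%. The simulated clones were drawn independently around 1 common mean per gene. Some of the real clones resemble each other closely, so these shares need not hold for the real calls.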

Additional observations from a re-analysis of the deposited data

Results flagged for a closer look

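The mixed population Het, which entered only 1 alternative fit, lay above all 15 other clones in 24 of the 65 genes called higher in P and Q (36.9%), and in 10.9% of all genes tested. C1R was at 85.7 CPM in Het, above P (79.7) and below Q (136). SERPING1 was at 66 CPM, also between P (59.1) and Q (81.2). APOD (67.8 CPM), ZNF521 (75), ITGBL1 (106), EXTL1 (8.65) and MYBPC2 (1.46) lay above the other clones and below both P and Q, and CSF2RB (3.19 CPM) above both. Het also had more reads of macrophage markers than any clone, such as 667 of CD163 and 619 of CD68, against 2 and 20 in P, 5 and 29 in Q, and at most 12 and 44 in the others. Their part in these levels was not tested.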

How the results depend on the processing

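The count of 75 genes (65 higher, 10 lower) became 486 (243 and 243) with DESeq2, 323 (279 and 44) with limma-voom, 45 (42 and 3) with Het added to the other clones, 322 (216 and 106) against F, I, K and M, and 603 (404 and 199) without A and N; library totals gave 5 lower. The calls shared with the 75 were 74 for DESeq2, 73 for limma, 45 with Het and 39 against F, I, K and M. With 1 clone left out the counts ran from 3 (without P) to 640 (without N), higher from 3 to 392 and lower from 0 to 248. Genes above all other clones ran from 447 to 1045, and below from 291 to 913, and without A and N they were 840 and 612. DESeq2 replaced counts it took for outliers in 115 genes, 84 of them in N, PRG4 included (8292 reads became 25). The log2 difference of PRG4 was 6.24 with DESeq2, 5.81 with limma, 5.94 against F, I, K and M, 6.20 without A and N, and 0.74 to 6.23 with 1 clone left out; that of SYT8 was 2.75 to 4.88. The sign turned for SYT12 (-0.07 without Q, 2.69 without P) and COMP (-0.58 without Q, 3.30 without N), for MMP12 (-1.51) and FCER1G (-0.31) with Het, for MKI67 (0.18) against F, I, K and M, and for the macrophage list's median (0.01 without P, -0.75 without Q). Of the single values of the called genes that were picked for naming, not of all 75, 759 stayed past the threshold and 315 did not, with 0 turned in sign. Other than as named, the cause was not tested. No paired analysis was possible because each clone is a separate population that was sequenced once. Genes of a few reads, such as GDF5, are limited by depth.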
